A study of Zea mays with 12 samples.

Results

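The asparagine and glutamine synthetase genes of the maize stem were followed across 4 treatments: plants carrying *Sesamia nonagrioides* larvae (larva), wounded plants that received caterpillar regurgitate (regurgitate), wounded plants (wounding) and untreated plants (control). The members were the 9 genes of both families on a given list, 4 asparagine synthetases and 5 glutamine synthetases, found by gene identifier. They occupied 8 rows of the table, out of 29723 rows with a maize gene identifier and 194388 rows in all. The members were chosen by enzyme family, with results of these libraries already known. GRMZM2G093175 was among the genes that the study called between larva and control libraries, and whether measured values chose the other members is not given in the sources used here. The values of all members in that comparison are therefore a description, with no test.

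All plants were of the inbred line PB130, and all samples were damage-free stem from the internode just below the ear, without the leaf sheath, collected 15 days after the treatments began. Larvae were enclosed between the sheath and the stem of the larva plants. In the regurgitate and wounding plants the leaf sheath was scratched repeatedly with a scalpel, and the scratches received regurgitate in buffer or buffer alone. Control plants were neither infested nor scratched. The injured sheath was therefore not the tissue sampled in the regurgitate and wounding plants. Each of the 4 groups had 3 libraries. The sources differ on the number of plants and on the stage, silking in the methods and VT (tasseling) in the labels.

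Asparagine synthetase moves the amide nitrogen of glutamine to aspartate at the cost of ATP, and glutamine synthetase makes that glutamine by joining ammonium to glutamate. Asparagine is rich in nitrogen relative to carbon and serves plants in the transport and storage of nitrogen. In Arabidopsis an asparagine synthetase gene is known to be induced in the dark, and asparagine synthetase is also known from maize root tips deprived of sugar. Glutamine synthetase has cytosolic forms, called GS1, and a plastid form, called GS2.

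RefSeq gene names matched 8 of the 9 members. The asparagine synthetases were asn1 (GRMZM2G074589), asn2 (GRMZM2G093175), asn3 (GRMZM2G053669) and the unnamed GRMZM2G078472. The glutamine synthetases were gln4 (GRMZM5G872068), GLN6 (GRMZM2G050514) and gln3 (GRMZM2G046601), all cytosolic forms by their RefSeq synonyms, and a joined row. That row held gln2 (GRMZM2G024104), a cytosolic form, together with the plastid form gs2 (GRMZM2G098290), so the counts of these 2 genes cannot be told apart. The GLN6 row and the joined row each also held 5 assembled contigs, and the authors' alignment let a read count at several locations, so reads of near-identical family members may have been split or shared.

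Massive analysis of cDNA ends (MACE) reads a single fragment near the 3′ end of a transcript, and long and short transcripts count alike. Levels are given as CPM, the counts of a gene relative to all counts on maize genes in its library, scaled by the trimmed mean of M values (TMM). The libraries held between 5636047 and 10040615 counts. Rows with a maize gene identifier took 85.1% to 89.3% of the counts in larva libraries, 44.3% to 93.2% in regurgitate libraries, 58.5% to 74.6% in wounding libraries and 87.8% to 90.0% in control libraries. Larva replicates 2 and 3 stood closer together than any other replicate pair (chi-square per degree of freedom of 1.55, against 16.6 to 67.8 for the other 11 pairs). They still differed beyond sampling noise, which alone does not show that they are independent. They were kept as separate replicates, and a fit with their counts summed was an alternative.

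Some marker sums of the tissue also differed between the treatments. The cellulose synthase sum was lower, and the senescence sum higher, in all regurgitate and wounding libraries than in any control library. The green tissue sums of every treated group overlapped control. Genes with the words cellulose synthase in their description (17 genes, 16 of them with counts in every group) were not restricted to those of the stem wall. They summed to 455 to 657 CPM in larva libraries, 175 to 388 CPM in regurgitate libraries, 184 to 204 CPM in wounding libraries and 575 to 1065 CPM in control libraries. Genes described by the word senescence (14 genes, all with counts in every group) summed to 855 to 1008 CPM in larva libraries, 1069 to 2258 CPM in regurgitate libraries, 2076 to 3584 CPM in wounding libraries and 904 to 968 CPM in control libraries. The chlorophyll-binding and Rubisco small subunit genes of green tissue (18 genes, all with counts in every group) summed to 6476 to 6681 CPM in larva libraries, 4730 to 5179 CPM in regurgitate libraries, 3603 to 6393 CPM in wounding libraries and 4267 to 8051 CPM in control libraries. None of the markers was at 0 throughout, and their part in the results for the members was not tested. In bulk stem, fewer cells of a type and less RNA per cell cannot be told apart.

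The member that varied most was asn3. It had 1843, 3153 and 788 CPM in wounding libraries, against 17.0, 10.2 and 8.77 CPM in control libraries. Every wounding library lay far above every control library. The transcript was 159-fold higher after wounding (log2 fold change 7.31, SE 0.68, edgeR FDR 0.00084), a log2 fold change larger than that of 99.8% of the 19166 genes tested. All 14 alternative settings kept the call, with FDR from 1.23e-40 to 0.00671 and log2 fold changes from 6.78 to 7.69.

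With regurgitate on the wounds, asn3 had 47.1, 1243 and 177 CPM. These 3 libraries lay above the 3 control libraries and, in replicates 1 and 3, below all wounding libraries. The mean was 489 ± 656 CPM in regurgitate plants and 1928 ± 1185 CPM in wounding plants (SD, n = 3 each). The difference of regurgitate from wounding, a log2 fold change of -2.02 (SE 1.14), did not pass the test (edgeR FDR 0.374). Regurgitate was lower in each of the 3 same-numbered pairs, and in the fit blocked on replicate number the log2 fold change was -2.82 (edgeR FDR 0.158). It ran from -1.44 without regurgitate replicate 1 to -4.06 without regurgitate replicate 2, and FDR over all alternatives from 0.0617 to 0.692. Against control, the estimate was 39.6-fold higher in regurgitate plants (log2 fold change 5.31, SE 1.24) and did not pass edgeR's test at FDR 0.101. It passed with DESeq2 (FDR 2.81e-06) and in a fit of all 12 libraries (edgeR FDR 0.0298), within a range of 2.81e-06 to 0.284 over the alternatives. Without regurgitate replicate 2 the log2 fold change was 3.22. The regurgitate and wounding comparisons with control share the control libraries, so their values are not independent of each other.

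In larva plants asn3 had 41.1, 9.24 and 10.9 CPM, against 17.0, 10.2 and 8.77 CPM in control plants. The groups overlapped, and only larva replicate 1 lay above all control libraries. The log2 fold change of 0.75 (SE 0.59) became -0.27 without that library.

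The pattern of asn2 was different, with the lowest control level among the 3 named asparagine synthetases. It had 6.20, 18.0 and 16.6 CPM in larva libraries, against 2.34, 3.30 and 1.89 CPM in control libraries. The groups did not overlap, and the estimate was 5.35-fold higher in larva plants (log2 fold change 2.42, SE 0.46; between 2.15 and 2.78 with any of the 6 libraries left out). The higher larva values were those of replicates 2 and 3, the pair that stood closest together. With the counts of this pair summed, the log2 fold change was 2.23. Of the 8 rows of the members, asn2 was the single row whose larva libraries all lay above the control libraries, and none lay wholly below. Among the 19612 genes that passed the filter in this comparison, 8.45% had larva libraries wholly above control and 7.07% wholly below. Over all of these genes edgeR called 0 in the larva comparison (1918 at an unadjusted p under 0.05), and DESeq2 called 273.

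Regurgitate libraries held 21.6, 11.6 and 12.3 CPM of asn2, all above the control libraries. These are the same control libraries as in the larva comparison, in which asn2 was already known to be called, so this is not independent of it. The increase over control was 5.97-fold (log2 fold change 2.58, SE 0.39, edgeR FDR 0.0386; DESeq2 FDR 1.93e-06). This call was close to the threshold. FDR ran from 1.93e-06 to 0.248 over 14 alternatives, of which 6 kept the call, and without any of the 3 control libraries, or without regurgitate replicate 1 or 2, it lay between 0.0513 and 0.137. The log2 fold change stayed between 2.22 and 2.80 in all of them.

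In wounding plants a single library held most of the asn2 counts, with 199 CPM in replicate 1 and 4.15 and 3.13 CPM in replicates 2 and 3. Replicate 3 fell within the control range of 1.89 to 3.30 CPM. The log2 fold change against control was 4.77 (SE 1.63, edgeR FDR 0.0543) and dropped to 0.53 without wounding replicate 1. FDR ran from 0.0184 to 0.363 over the alternatives. The comparison of regurgitate with wounding rested on the same library: the log2 fold change was -2.17 (SE 1.46, edgeR FDR 0.449) with it and 2.02 without it (FDR 0.0955, in a range of 0.0955 to 1 over the alternatives). In the fit blocked on replicate number it was -0.004.

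**Figure D1:**
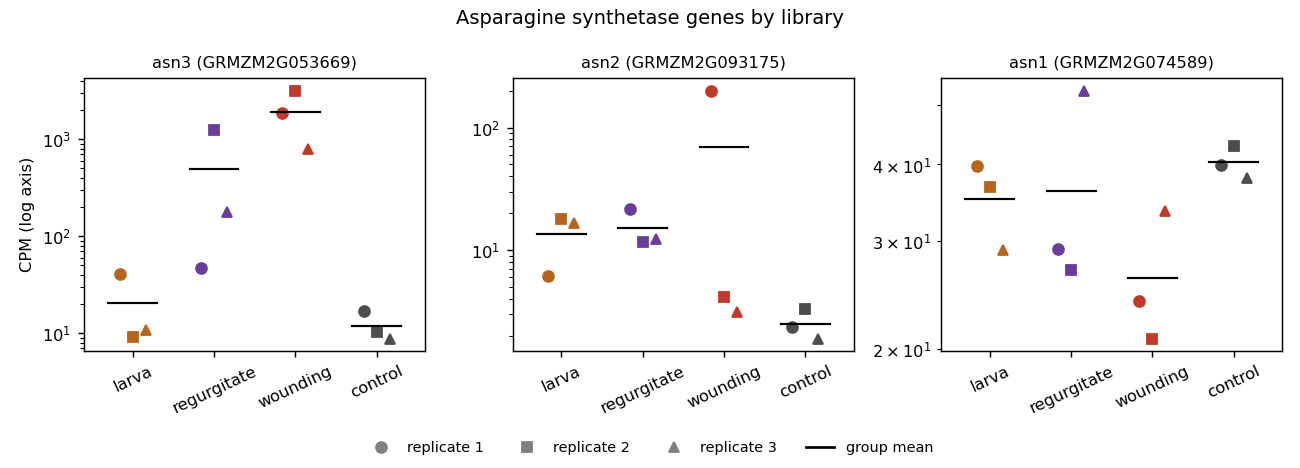
CPM on a log axis of asn3, asn2 and asn1 in each of the 12 libraries, with 3 libraries and a line at the mean for each of larva, regurgitate, wounding and control. The 3 wounding libraries of asn3 lie between 788 and 3153 CPM and the control libraries at or below 17.0 CPM, whereas asn2 in wounding libraries has 1 high point of 199 CPM.

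The asn1 gene was the steadiest of the asparagine synthetases, with between 20.8 and 52.8 CPM in all libraries. It had 24.0, 20.8 and 33.6 CPM in wounding libraries, against 40.0, 42.9 and 38.0 CPM in control libraries. The groups did not overlap, and wounding was lower (log2 fold change -0.64, SE 0.21, edgeR FDR 0.045; DESeq2 FDR 0.0395). Of the 14 alternatives, 6 kept this call, over a range of FDR from 0.00808 to 0.124. Leaving out any library but wounding replicate 3 ended it (FDR 0.0886 to 0.124). Larva libraries held 39.8, 36.7 and 29.0 CPM, a log2 fold change of -0.21 (SE 0.15) from control. Regurgitate libraries held 29.1, 26.9 and 52.8 CPM, and their log2 fold change was -0.16 (SE 0.28, edgeR FDR 0.774) from control and 0.48 (SE 0.34, edgeR FDR 0.469) from wounding.

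GRMZM2G078472 was close to absent from the counts. It had 8 counts over the 12 libraries, 6 of them in wounding replicate 2 and 1 each in larva replicate 2 and regurgitate replicate 3. A count of 0 in the other 9 libraries allows up to 3 counts, or 0.326 to 1.12 CPM depending on the library, for counting error only. It passed no filter and no fold change is given.

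As MACE levels do not scale with length, the members of a family could be summed. The 4 asparagine synthetases together had 87.1, 64.0 and 56.5 CPM in larva libraries, 97.8, 1281 and 242 CPM in regurgitate libraries, 2066, 3179 and 825 CPM in wounding libraries and 59.3, 56.5 and 48.7 CPM in control libraries. In control plants asn1 made up 67.4% to 78.1% of that sum and asn3 18.0% to 28.7%. In wounding plants asn3 made up 89.2%, 99.2% and 95.6% of it. In regurgitate plants asn3 made up 48.2%, 97.0% and 73.1%, and in larva plants 47.2%, 14.4% and 19.4%. The share of asn2 was 7.12%, 28.1% and 29.4% in larva plants, against 3.95%, 5.85% and 3.88% in control plants.

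Among the glutamine synthetases no member moved on the scale of asn3. The most abundant member by its mean over the 12 libraries, gln4, known as the mesophyll GS1 of maize leaves, had 337, 374 and 363 CPM in larva libraries, against 428, 361 and 413 CPM in control libraries. In regurgitate libraries it had 402, 401 and 226 CPM, and in wounding libraries 239, 436 and 220 CPM. The groups overlapped, and regurgitate replicate 3 and wounding replicates 1 and 3 lay well below the control range. The log2 fold changes were -0.18 (SE 0.16) for larva with control, -0.24 (SE 0.29, edgeR FDR 0.669) for regurgitate with control, -0.44 (SE 0.30, edgeR FDR 0.286) for wounding with control and 0.18 (SE 0.38, edgeR FDR 0.825) for regurgitate with wounding. Of 14 alternatives for wounding with control 2 passed the threshold (FDR 0.034 to 0.563), scaling by total counts and leaving out wounding replicate 2.

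GLN6, named GS1-1 among the RefSeq synonyms, varied most of the glutamine synthetases that passed the filter in every comparison. It had 278, 1158 and 109 CPM in regurgitate libraries, against 90.8, 26.7 and 111 CPM in wounding libraries. The highest value was in regurgitate replicate 2 and the lowest in wounding replicate 2. The GLN6 row also held 5 assembled contigs. Contigs outside the maize gene rows took 48.1% of the counts of regurgitate replicate 2, and the part of contigs in its GLN6 value was not tested. The groups overlapped through regurgitate replicate 3. The log2 fold change was 2.73 (SE 0.94) and did not pass edgeR's test at FDR 0.184. It passed with DESeq2 (FDR 0.0192) and in the fit of all 12 libraries (edgeR FDR 0.0474), over a range of 0.0192 to 0.432. It was 1.38 without regurgitate replicate 2 and 2.14 in the fit blocked on replicate number (edgeR FDR 0.341).

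Against control, with 192, 167 and 126 CPM, the wounding libraries of GLN6 were all lower (log2 fold change -1.11, SE 0.48, edgeR FDR 0.108), which did not pass the test except with scaling by total counts (FDR 0.0434, in a range of 0.0434 to 0.252). The regurgitate libraries differed from control by a log2 fold change of 1.64 (SE 0.79, edgeR FDR 0.309), and by 0.26 without regurgitate replicate 2. Larva libraries held 164, 113 and 98.7 CPM and overlapped control (log2 fold change -0.39, SE 0.24). GLN6 made up 67.3% of the summed glutamine synthetases in regurgitate replicate 2 and between 3.70% and 31.9% in the other 11 libraries.

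The joined row of cytosolic gln2 and plastid gs2 had 470, 260 and 245 CPM in larva libraries, 187, 161 and 307 CPM in regurgitate libraries, 112, 258 and 273 CPM in wounding libraries and 213, 464 and 209 CPM in control libraries. All groups overlapped. Its log2 fold changes were 0.12 (SE 0.40) for larva with control, -0.45 (SE 0.42, edgeR FDR 0.571) for regurgitate with control, -0.48 (SE 0.45, edgeR FDR 0.426) for wounding with control and 0.02 (SE 0.43, edgeR FDR 0.983) for regurgitate with wounding. The sign of its larva value depended on single libraries: it was -0.23 without larva replicate 1, -0.07 without control replicate 1 or 3, and 0.61 without control replicate 2.

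The cytosolic gln3, with 103 counts in all, was the least abundant of the glutamine synthetases. It had 2.28, 1.34 and 2.0 CPM in larva libraries, 3.33, 0.374 and 0.296 CPM in regurgitate libraries, 0.567, 0.437 and 0.671 CPM in wounding libraries and 1.11, 2.52 and 1.21 CPM in control libraries. Wounding lay below control in all 3 libraries, but the gene did not pass the filter on low counts in the comparisons of wounding or regurgitate plants. In larva plants its log2 fold change was 0.22 (SE 0.43).

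**Figure D2:**
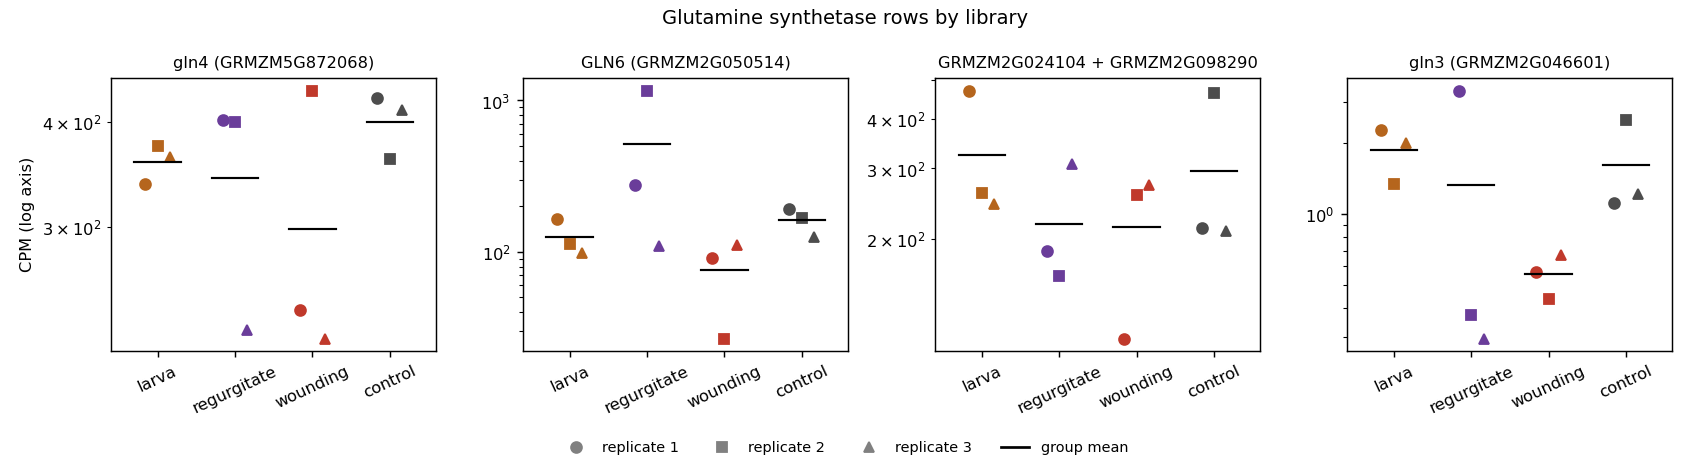
CPM on a log axis of gln4, GLN6, the joined row of GRMZM2G024104 and GRMZM2G098290, and gln3 in each of the 12 libraries, with 3 libraries and a line at the mean for each group. GLN6 reaches 1158 CPM in regurgitate replicate 2 and 26.7 CPM in wounding replicate 2, and the groups of gln4 and of the joined row overlap.

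A glutamine synthetase outside the list, gln5 (GRMZM2G036464), known from maize leaves as the bundle sheath GS1, was looked at after its values were seen. It had 242, 192 and 98.6 CPM in wounding libraries, against 440, 397 and 481 CPM in control libraries. The groups did not overlap, and gln5 fell after wounding (log2 fold change -1.32, SE 0.34, edgeR FDR 0.0213; DESeq2 FDR 0.00132). The call held in 12 of 14 alternatives and was lost without control replicate 3 (FDR 0.0634) or wounding replicate 2 (FDR 0.0501), over a range of 0.00132 to 0.0634. Regurgitate libraries, with 414, 288 and 357 CPM, were all above the wounding libraries, but the difference did not pass the test (log2 fold change 0.99, SE 0.37, edgeR FDR 0.208). Larva libraries held 338, 441 and 438 CPM, a log2 fold change of -0.13 (SE 0.19) from control.

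The ratio of the summed asparagine synthetases to the summed glutamine synthetases of the list compares transcripts within a library, so library scaling does not enter it. It was 4.67, 4.41 and 1.36 in wounding libraries, against 0.0712, 0.0567 and 0.0650 in control libraries. Regurgitate libraries had ratios of 0.112, 0.745 and 0.377, all above control and all below wounding. Larva libraries had ratios of 0.0895, 0.0856 and 0.0797, which also lay above every control library. Their sums include asn2, already known to be called between larva and control, which made up 7.12%, 28.1% and 29.4% of them. The position of the larva ratios is therefore not independent of that call. Each of the other asparagine synthetases overlapped control in larva libraries, so the larva ratios are not read as a shift of the whole family. With gln5 and the contigs or intervals matched to maize added to the sums, an alternative chosen after seeing the data, the ratios were 2.67, 2.99 and 0.919 in wounding libraries, against 0.0468, 0.0407 and 0.0399 in control libraries. Asparagine synthetase counts thus exceeded those of glutamine synthetase in all 3 wounding libraries over the listed rows, and in replicates 1 and 2 over the wider sums. The ratio was computed after its parts were seen and is a description.

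**Figure D3:**
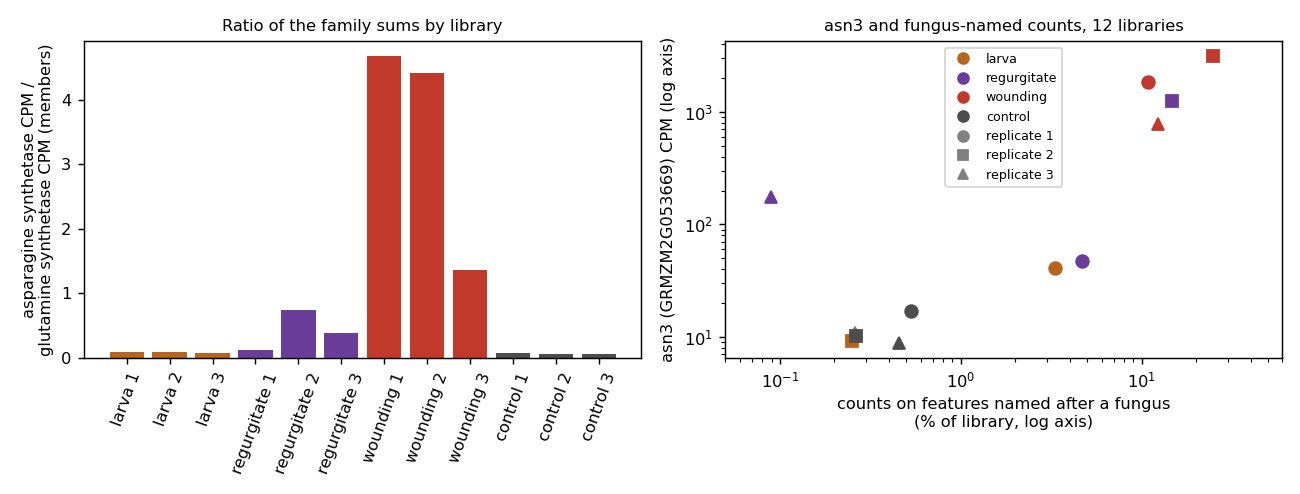
Left, bars of the ratio of summed asparagine synthetase CPM to summed glutamine synthetase CPM in each library, from 0.0567 in control replicate 2 to 4.67 in wounding replicate 1. Right, asn3 in CPM against the percentage of a library's counts on features named after a fungus, both on log axes, for the 12 libraries, where regurgitate replicate 3 lies apart at 0.0889% and 177 CPM.

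Counts on features named after a fungus were high in the wounding libraries, as asn3 was. Such features numbered 19120, from words for 5 genera chosen after the data were seen (Gibberella, Fusarium, Colletotrichum, Sporisorium and Ustilago). They took 10.9%, 24.7% and 12.4% of the counts in wounding libraries, 4.66%, 14.8% and 0.0889% in regurgitate libraries, 3.31%, 0.250% and 0.262% in larva libraries and 0.528%, 0.263% and 0.455% in control libraries. In each of the 4 groups the library with the highest percentage also had the highest asn3. The order below it did not always match: wounding replicate 3 had a higher percentage than replicate 1 but 788 CPM of asn3, against 1843 CPM in replicate 1, and control replicates 2 and 3 also stood in opposite order. In the regurgitate group replicate 3 had the lowest percentage and more asn3 than replicate 1. Assembled contigs took 1.03% of the counts in regurgitate replicate 3 and 19.3% and 48.1% in the other regurgitate libraries, so its fungal percentage may not be comparable. The asn3 row itself carried a single maize identifier and no contig. The part of fungal RNA in the asn3 result was not tested.

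Counted over the list, the wounding comparison called 2 of the 6 members that passed the filter, 1 higher (asn3) and 1 lower (asn1), where 38.8% of all 19166 genes tested were called (19.6% higher and 19.3% lower). Over the 8 rows, 1 lay wholly above control and 3 wholly below, against 27.5% and 27.6% of the genes tested. The lower rows included gln3, which did not pass the filter that the genes tested had passed. The median log2 fold change of the 6 members was -0.46, against -0.01 over all genes. Scaling by total counts moved the median of all genes to -0.44 in this comparison and the calls to 2366 higher and 6741 lower, against 3747 higher and 3691 lower with TMM. The share of members called was near that of all genes.

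In regurgitate with control, 1 of 6 members was called (asn2), where 1.28% of 19171 genes were, and DESeq2 called 2 of 6 (asn2 and asn3), where 8.90% of genes were. The asn2 gene was already known to be called in larva with control, on the same control libraries. Neither these counts nor the median below, which includes asn2, are independent of that call. Regurgitate libraries lay wholly above control for 2 rows and wholly below for 0, against 15.8% and 13.6% of genes. The median of the members was a log2 fold change of 0.74, against -0.04 over all genes. Of the 6 estimates 3 were higher and 3 lower, and the median fell in the gap between asn1 (-0.16) and GLN6 (1.64).

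In regurgitate with wounding edgeR called 0 of 6 members, where 0.0602% of 18285 genes were called (11 genes, or 0 in the blocked fit). At an unadjusted p under 0.05 it had 19.8% of all genes. DESeq2 called 1 member (GLN6), where 8.93% of genes were called. The members' median log2 fold change was 0.10, against -0.02 over all genes.

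The larva response (larva minus control) was also set against the regurgitate response (regurgitate minus wounding) in a fit of all 12 libraries. EdgeR called 1.15% of the 20224 genes tested and DESeq2 6.47%. This contrast contains the larva comparison, so the values of the 7 members that passed the filter are a description, with no test. The difference of the responses was 4.61 on the log2 scale for asn2 (SE 1.76), and 0.38 without wounding replicate 1. It was 2.75 for asn3 (SE 1.42), and ran from 1.73 without larva replicate 1 to 4.87 without regurgitate replicate 2. It was -3.13 for GLN6 (SE 1.03), and -1.72 without regurgitate replicate 2.

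**Figure D4:**
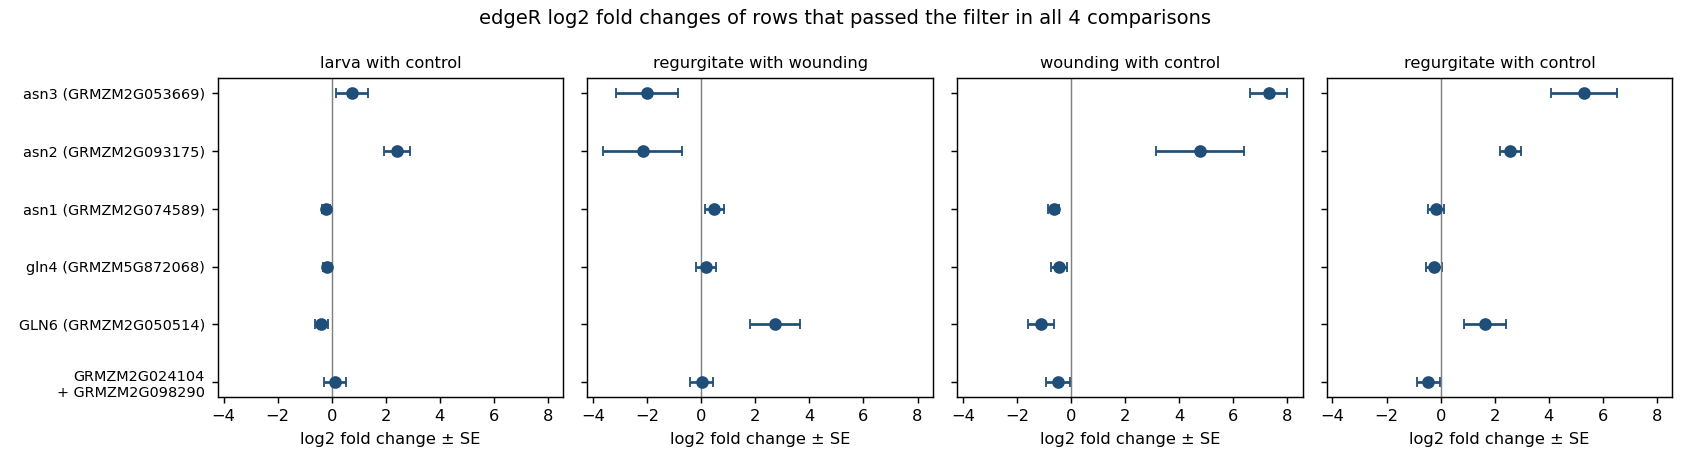
Log2 fold changes (points) with standard errors (bars) of the 6 rows that passed the filter in each comparison, 1 panel per comparison, with a line at 0. The largest is that of asn3 between wounding and control (7.31), and gln4 lies between -0.44 and 0.18 in all panels.

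Other genes of nitrogen metabolism, taken by words in the gene descriptions, were compared with the members. Of 35 genes, 27 were tested in wounding with control, where 5 rose and 4 fell, a share near the background of 38.8%. In the other comparisons edgeR called 0 of them. DESeq2 called 0 between larva and control, 3 between regurgitate and wounding, 1 between regurgitate and control and 1 for the difference of responses. The median log2 fold change of the list after wounding was 0.10.

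A glutamate dehydrogenase (GRMZM2G427097), an enzyme that can release ammonium from glutamate, had the largest log2 fold change of these 9. It had 148, 412 and 87.5 CPM in wounding libraries, against 11.6, 11.6 and 9.44 CPM in control libraries (log2 fold change 4.30, SE 0.61, edgeR FDR 0.0026; 3.44 without wounding replicate 2). Its regurgitate libraries held 19.6, 197 and 38.4 CPM, high in replicate 2 as asn3 was, and its larva libraries 21.6, 12.4 and 11.5 CPM. An amino acid permease (GRMZM2G134888), which carries amino acids across membranes, had 255, 222 and 163 CPM in wounding libraries, against 42.4, 66.1 and 55.0 CPM in control libraries (log2 fold change 1.96, SE 0.26, edgeR FDR 0.00209). Both calls held in all 14 alternatives, with FDR up to 0.0149 and 0.0127. A second permease (GRMZM2G087635; log2 fold change 1.0, edgeR FDR 0.0258) and an alanine aminotransferase (GRMZM2G088064; 1.12, edgeR FDR 0.0433) also rose, but lost the call in 7 and 8 of 14 alternatives, with FDR up to 0.118 and 0.132.

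Genes that fell after wounding included a glutamate decarboxylase (GRMZM2G017110), which makes γ-aminobutyrate from glutamate. It had 8.88, 4.59 and 15.9 CPM in wounding libraries, against 62.5, 42.5 and 62.7 CPM in control libraries (log2 fold change -2.53, SE 0.42, edgeR FDR 0.00442). A cationic amino acid transporter (GRMZM2G127150) fell by 2.18 on the log2 scale (edgeR FDR 0.00448). An aspartate aminotransferase (GRMZM2G146677), whose class of enzymes supplies aspartate, fell by 1.63 (edgeR FDR 0.015), and all 3 calls held in the 14 alternatives. A phosphoenolpyruvate carboxylase (GRMZM2G074122) fell by 1.09 (edgeR FDR 0.0253) and kept the call in 10 of 14, with FDR up to 0.0796. The ferredoxin-dependent glutamate synthase (GRMZM2G036609), which returns glutamine nitrogen to glutamate, had a log2 fold change of 0.13 (SE 0.20, edgeR FDR 0.634). The other 2 genes found by the words glutamate synthase were folylpolyglutamate synthases, enzymes of folate metabolism.

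Across the 12 libraries, the 3 genes most like asn3 among 20223 compared, chosen after its values were seen, were GRMZM2G323888, GRMZM2G008607 and GRMZM2G149230, each with a Pearson r of 0.99 on log2 CPM. Those most like asn2 were GRMZM2G141665 (r = 0.92), GRMZM2G385050 (r = 0.88) and GRMZM2G059252 (r = 0.88). Those most like gln4 were GRMZM2G098800 (r = 0.88), GRMZM2G090100 (r = 0.86) and GRMZM2G103892 (r = 0.86). All 9 were described as uncharacterized proteins, and the libraries behind each r share treatment, depth and maize share, so r is a description.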

How the data were processed

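Maize stem MACE libraries, 3 per group, were made from the 12 samples. The authors removed copies of the same molecule, trimmed reads, aligned them with Novoalign (version 3.00.05 in the submitters' processing notes) to the ENSEMBL maize genome and its transcriptome, assembled reads left over, and deposited raw counts per feature and library. Deposited normalized means, log2 fold changes, p-values and FDRs hold the authors' own comparisons (DESeq) and were not used. Count columns without a sample numbered 0. A row of unmatched reads (0.222% of counts) was left out.

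Rows with a maize gene identifier (307 of all rows join several genes) were kept where filterByExpr passed them (at least 10 counts, total of at least 15), scaled by TMM and tested with edgeR 4.0.16 (limma 3.58.1, R 4.3.3) quasi-likelihood tests on the 6 libraries of each comparison, with Benjamini-Hochberg adjustment over all genes tested and a threshold of 0.05. The standard error was the log2 fold change divided by the square root of F. DESeq2 1.42.0 was an alternative. P-values test the difference between groups against the spread of 3 libraries per group. Steps were tested on simulated data.

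Replicate numbers are shared by the groups. Deviations of same-numbered libraries from their group means correlated at 0.16, 0.32 and 0.16 between regurgitate and wounding, all positive. No other comparison had a positive value for every number. The blocked value is therefore printed there beside asn2, asn3, GLN6 and the count of calls. Blocked edgeR FDR was 0.226 for asn1, 0.655 for gln4 and 0.917 for the joined row. The block changed the call of no member. The labels do not say what a number marks.

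All 9 members are named, and of the other nitrogen genes at most 2 called per list and direction, or otherwise the most abundant of a list. Genes most alike were the 3 with the highest Pearson r. The members and lists were chosen with earlier results of these data known. Gene names came from RefSeq (assembly Zm-B73-REFERENCE-NAM-5.0), which differs from the authors' build, so no coordinates are given.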

Additional observations from a re-analysis of the deposited data

Results flagged for a closer look

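Rows of both enzymes outside the maize gene identifiers were summed by the organism they matched. Values are counts scaled like CPM but over all counts of a library. The sums matched to maize or to a fungus carried more signal in all wounding libraries than in any control library. A glutamine synthetase row matched to another organism overlapped control, with 1.23, 0.398 and 0.503 in wounding and 0.825, 0.155 and 0.56 in control libraries. The totals of assembled contigs and of features named after a fungus were also higher in all wounding libraries. All assembled contigs took 17.4%, 34.5% and 24.6% of the counts in wounding libraries, against 4.13%, 2.34% and 3.02% in control libraries. All features named after a fungus took 10.9%, 24.7% and 12.4%, against 0.528%, 0.263% and 0.455%. The 2 asparagine synthetase contigs or intervals matched to maize had 25.6, 39.0 and 11.6 in wounding libraries (mean 25.4), 20.2, 54.1 and 0.299 in regurgitate libraries, 6.59, 1.42 and 1.77 in larva libraries and 0.707, 0.465 and 0.840 in control libraries. The 4 glutamine synthetase contigs or intervals matched to maize averaged 90.4 in wounding libraries, with 67.9, 81.3 and 122, against 8.96, 5.11 and 9.81 in control libraries. They had 51.6, 6.96 and 5.68 in larva libraries and 47.5, 85.0 and 1.04 in regurgitate libraries. Of these 4 rows 2 were lower in wounding than in control libraries, with 16, 3 and 10 counts against 57, 21 and 24, and with 0, 4 and 2 counts against 6, 8 and 8. Regurgitate replicate 3 lay below every control library in both maize-matched sums.

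Asparagine synthetase matched to a fungus (3 rows) averaged 2.59 in wounding libraries (0.985, 1.89 and 4.90), against 0 counts in every control library. Glutamine synthetase matched to a fungus (5 rows) averaged 15.3 in wounding libraries (9.85, 16.6 and 19.4), against 0.471, 0.310 and 0.140 in control libraries, and had 4.34, 5.96 and 0 in regurgitate libraries and 6.90, 0 and 0.177 in larva libraries. None of these rows entered the values of the members, and the differences were not tested.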

How the results depend on the processing

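Among alternative adjusted values of the 29 log2 fold changes with a test, from settings that kept all libraries, 208 kept direction and side of the threshold, 8 newly passed it, 13 lost it and 1 reversed. Reversals concerned the joined row: -0.0004 in regurgitate with wounding without a filter, and in the difference of responses, which has no test here, -0.23 with total counts and -0.023 with all features, where the main estimate was near 0. The calls of asn2 in regurgitate with control and asn1 in wounding with control stood close to the threshold. The causes were not tested. Low counts limited gln3 and GRMZM2G078472.

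The number of genes called moved more. In larva with control it was 0, but 2 with total counts, 273 with DESeq2, 2 without a filter and 1 with all features. In regurgitate with wounding it was 11, but 0 with total counts, 1633 with DESeq2, 110 without a filter, 0 with all features, 0 with the replicate block and 1788 in the fit of 12 libraries. In wounding with control it was 7438, and 16657 with all features. In regurgitate with control it was 245, but 1707 with DESeq2, 0 with all features, 0 with the replicate block and 1190 in the fit of 12 libraries. In the difference of responses it was 233, but 1308 with DESeq2, 0 with all features, 47 with the replicate block and 0 with larva replicates 2 and 3 summed.

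Leaving out each library in turn gave 0 to 11 calls in larva with control (11 without control replicate 1), 0 to 665 in regurgitate with wounding (665 without regurgitate replicate 2), 5263 to 6835 in wounding with control, 0 to 490 in regurgitate with control (490 without regurgitate replicate 3) and 0 to 1538 in the difference of responses (1538 without regurgitate replicate 2). Log2 fold changes that changed sign there ran, in larva with control, from -0.27 to 1.10 for asn3 and from -0.23 to 0.61 for the joined row. In regurgitate with wounding they ran from -2.75 to 2.02 for asn2, from -0.0095 to 0.56 for gln4 and from -0.31 to 0.25 for the joined row. In regurgitate with control they ran from -0.52 to 0.029 for asn1, from -0.39 to 0.0078 for gln4 and from -0.76 to 0.025 for the joined row. In wounding with control the joined row ran from -0.69 to 0.0059, and in the difference of responses from -0.26 to 0.59, with gln3 from -1.58 to 1.01.

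Outside regurgitate with wounding no comparison had positive correlations for every replicate number. Same-numbered deviations correlated at -0.03, -0.19 and 0.21 between larva and control, -0.24, -0.01 and -0.16 between wounding and control, and -0.08, -0.05 and -0.10 between regurgitate and control. With the replicate block there, asn3 in wounding with control kept its call (7.14, FDR 0.00289), asn1 had FDR 0.0914 and asn2 in regurgitate with control FDR 0.12.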
